A study of Mus musculus with 10 samples.

Results

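Serpins are proteins of a shared fold that carry an exposed reactive-centre loop. In the inhibitory members a protease cuts this loop as if it were a substrate, the serpin then snaps into another shape, and the enzyme is dragged along and stays trapped. Plasminogen activation, coagulation, complement and the proteases of leukocytes are all held in check by serpins, and other members have left protease inhibition behind to carry hormones or to help fold collagen. In the artery wall they are known above all as the counterweight to elastases and to the plasminogen activators. Clade letters after the family name group members by descent: A holds antitrypsin and its secreted relatives, B the mostly intracellular ovalbumin type, E protease nexin and its relatives, H the collagen chaperone and I neuroserpin.

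The gene names of the arrays were searched for the word Serpin followed by a clade letter, a number and, in some, a further letter. This found 60 of 35527 gene names, on 75 of 55681 probes of 60 bases. Expression was measured in infrarenal aorta of male C57BL/6J mice aged 10 weeks, taken 7 days after the segment had been infused for 5 min at 100 mmHg. The sham group (n = 5) received saline, and the PPE group (n = 5) received porcine pancreatic elastase type I at 1.5 U per mL, which breaks down the elastic fibres of the wall and is the standard way to set off an abdominal aortic aneurysm (AAA) in mice. Each array held the RNA of 1 aorta, not pooled, in the red channel, with a universal mouse reference RNA in the green. A value here is the log2 of aortic signal over reference signal, and a difference is PPE minus sham. Because the tissue was profiled whole, fewer cells of a type and less RNA per cell cannot be told apart.

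Between 37.6% and 65.8% of spots had a red signal well above background, lowest on sham array 5 and highest on PPE array 1, and no spot was saturated. A name was tested if 5 or more of the 10 arrays read one of its probes well above background. Of the 60 serpin names, 34 passed and 26 did not. As a check of the tissue, all 7 smooth muscle markers and all 5 endothelial markers listed were measurable. Sham array 1 and PPE arrays 1 and 2 shared slide 1, and sham arrays 2 and 3 and PPE arrays 3 and 4 shared slide 2, while the other arrays each came from a slide of their own.

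Many serpins arose by tandem duplication, and their probes are alike. These probe stretches are shown because they limit which gene a value can be given to. Each is 30 bases of the probe, 5′ to 3′, and capitals mark the positions at which the 3 aligned probes of a set are not all the same. The probes were aligned without gaps, so an inserted base can also turn positions after it into capitals. For the antitrypsin genes (chromosome 12) and the Serpinb6 genes (chromosome 13) they read
Serpina1a: tgaattgggttccttCcATtAaaCACAggC
Serpina1c: tgaattgggttccttCcATtAaaCACAggC
Serpina1e: tgaattgggttccttTcCAtTaaACACggG
Serpinb6a: agtgaccttatccataaGtGCaatgGcaAT
Serpinb6c: agtgaccttatccataaGtGCaatgAcaGC
Serpinb6e: agtgaccttatccataaAtATaatgAcaGT
The Serpina1a and Serpina1c probes shared 51 aligned bases with 1 mismatch, and the file lists the Serpina1c probe against transcripts of Serpina1a, Serpina1b and Serpina1e as well. The Serpinb6a probe and 1 of the 2 Serpinb6c probes shared 59 bases with 4 mismatches. Probes of Serpinb9f and Serpinb9g differed at 7 of 59 bases, and those of Serpinb3a and Serpinb3c at 5 of 48. In all, 4 of the 75 probes were listed against transcripts of another gene too, and 3 of these were among the 43 tested probes: those of Serpina1c, Serpina1d and Serpina3f. The Serpina3f probe is listed against Serpina3h, and its position in the files (chr12:105492556-105492615, mm9) lies 823 bases from the Serpina3h probe and 33.6 kb from the second Serpina3f probe. Values of these names are therefore values of a probe that may read several genes. For the probes of Serpina3g, Serpina3i and Serpine3 and 1 of the 2 Serpina11 probes, no listed transcript was found in the RefSeq table (GRCm38.p6). Whether those probes are listed against another gene could not be checked.

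The hinge is the short stretch at the start of the reactive-centre loop that inhibitory serpins need to snap. Probes were searched for codons of glycine, threonine, any residue, alanine, then serine, alanine or threonine, then alanine. Hinges of other residues would be missed by this pattern. A single one of the 75 probes matched it. It belongs to Serpine2, whose level fell in PPE as described further on, and its hinge codons are in capitals here:
Serpine2: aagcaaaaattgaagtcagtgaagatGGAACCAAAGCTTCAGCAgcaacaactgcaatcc
Among all 55681 probes, 7 held such codons. The Serpine2 probe spans chr1:79793476-79796093 on mm9, which is longer than the probe itself.

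Of the 34 tested serpins, 9 were higher in PPE and 2 were lower at an adjusted p under 0.01 (limma with Benjamini-Hochberg adjustment over all 22520 names tested). Over all names 13.8% were called higher and 9.96% lower, and among the serpins the shares were 26.5% and 5.88%. Every one of the 11 called serpins differed by more than 2-fold, as did 1775 of the 3116 names called higher over all. The groups did not overlap on any array for 10 of the 34 serpins (29.4%), against 25.5% of all names. Groups that do not overlap always give an exact two-sided permutation p of 0.00794, the smallest that 5 against 5 arrays allow. For these 10 that p therefore adds nothing to the lack of overlap. The median difference was 0.12 over the tested serpins and 0.02 over all names. With median centring of the arrays in place of loess 2 serpins, Serpina3f and Serpina3g, were called higher and 0 lower. Over all 22520 names, 408 were then called higher and 8 lower, against 3116 and 2243 with loess. With a signal above background required on all 10 arrays, 4 of 19 tested serpins were higher and 2 lower. Of all 15261 names tested there, 2424 were higher and 2072 lower. By clade, 6 of 17 tested names of clade A, 2 of 10 of clade B and the only name of clade H were higher, while the 2 decreases were in clades E and I.

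**Figure D1:**
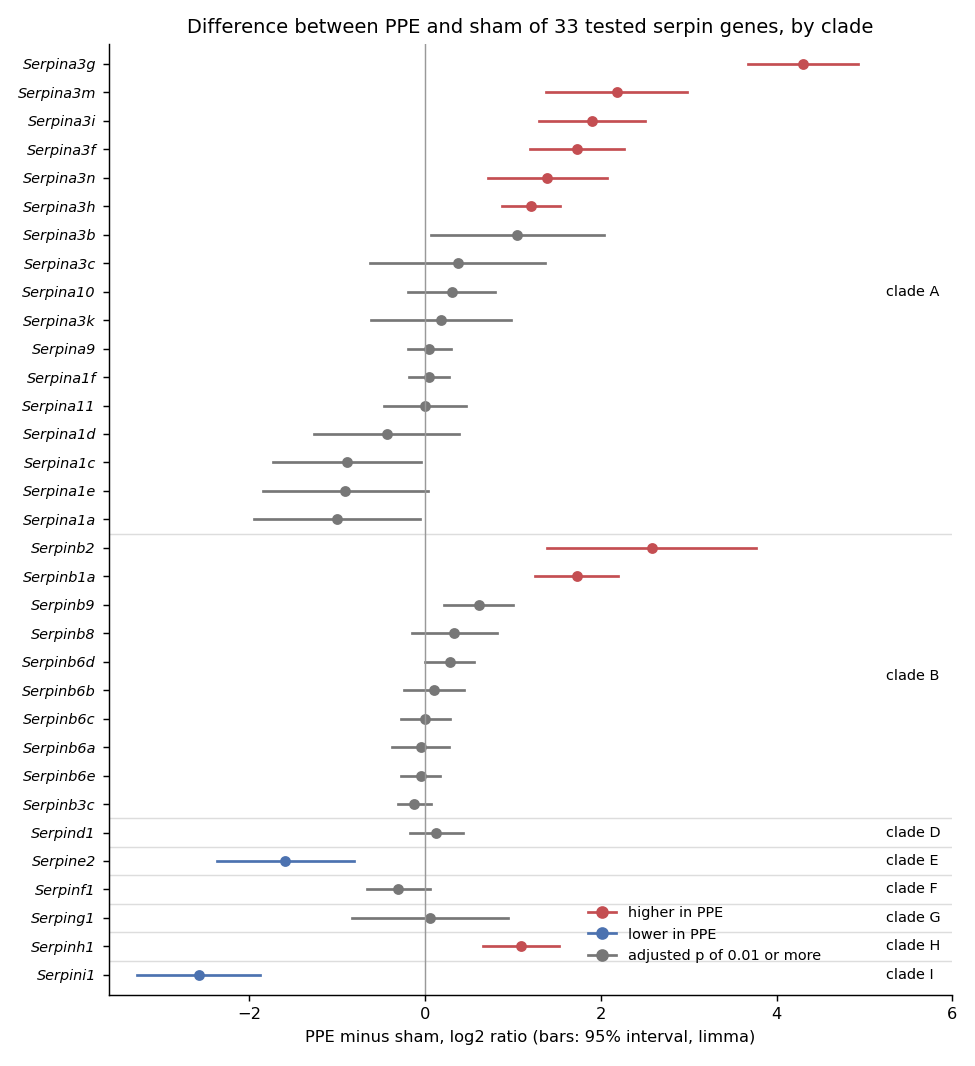
Difference between PPE and sham for 33 tested serpin genes, on the x axis as log2 ratio (point, with the 95% interval from limma as bar), grouped by clade on the y axis; red and blue mark genes past an adjusted p of 0.01. The 6 red genes of clade A are all Serpina3 genes, and Serpini1 lies farthest to the left at −2.58.

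The Serpina3 genes, which in the mouse are a row of copies of the gene for antichymotrypsin, held 6 of the 9 increases. Of 11 Serpina3 names 9 were tested, 6 of them rose (66.7%, against 13.8% of all names), none fell, and the median difference was 1.39. Serpina3f, Serpina3h, Serpina3i and Serpina3m were above background on 2, 3, 3 and 4 sham arrays and on all 5 PPE arrays. They passed the filter only with PPE arrays counted. Serpina3a was above background on 0 arrays and Serpina3j on 1, and neither was tested.

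Serpina3g, known as Spi2A, acts inside the cell against cysteine cathepsins that leak from lysosomes. Its log2 ratio was −0.95, 0.14, 0.51, −0.59 and −0.15 on sham arrays 1 to 5 and 4.67, 4.19, 3.75, 3.56 and 4.30 on PPE arrays 1 to 5. Even the lowest PPE array lay more than 3 log2 units above the highest sham array. The difference of 4.30 (SE 0.29, 19.7-fold, adjusted p 1.28e-06, limma) was exceeded by 30 of the 22520 names. Its probe lies at chr12:105480045-105480104 (mm9).

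Serpina3m (chr12:105632110-105632169) measured 0.58, 0.31, 0.38, 0.60 and 0.91 in sham and 3.97, 3.25, 2.19, 2.71 and 1.57 in PPE. Serpina3i (chr12:105504738-105504797) measured 0.27, −0.26, 0.34, 0.30 and 0.00 in sham and 2.92, 2.14, 1.80, 2.16 and 1.13 in PPE. Both genes had PPE array 1 highest and PPE array 5 lowest, and in neither did the groups overlap. The differences were 2.18 (SE 0.37, 4.53-fold, adjusted p 0.000735) for Serpina3m and 1.90 (SE 0.27, 3.73-fold, adjusted p 0.000246) for Serpina3i. In sham, Serpina3m was above background on 4 arrays and Serpina3i on 3, so low sham values of Serpina3i are close to the detection limit.

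Serpina3n is the secreted form best known for inhibiting granzyme B and neutrophil proteases. Its values were 2.51, 1.98, 1.76, 2.36 and 2.39 in sham and 3.78, 4.70, 2.94, 2.94 and 3.59 in PPE, again without overlap. The difference of 1.39 (SE 0.31, 2.62-fold, adjusted p 0.00431) was the least secure of the Serpina3 increases. It was 0.31 (adjusted p 0.554) on the ratios as the scanner software gave them and 1.11 (adjusted p 0.0211) with a smaller background offset, and without sham array 2, sham array 3 or PPE array 1 its adjusted p was 0.0131, 0.0118 and 0.0120. Its probe lies at chr12:105651918-105651977.

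Serpina3h is listed by RefSeq (GRCm38.p6) as a transcribed pseudogene, the only one among the 60 names. The probe (chr12:105491733-105491792) gave −0.89, −0.84, −0.56, −0.90 and −0.31 in sham and 0.86, 0.30, 0.36, 0.57 and 0.46 in PPE, a difference of 1.21 (SE 0.15, 2.31-fold, adjusted p 8.56e-05). The Serpina3f probe that lies next to it gave −2.20, −1.24, −1.15, −1.79 and −0.71 in sham and 0.48, −0.06, 0.35, 0.43 and 0.37 in PPE, a difference of 1.73 (SE 0.25, adjusted p 0.000223). It was above background on 2 of the 5 sham arrays. The second Serpina3f probe, which the files list against Serpina3f transcripts alone, gave 0.00, 0.62, 0.52, 0.29 and 0.06 in sham and 4.40, 3.30, 2.76, 3.22 and 2.59 in PPE, and the difference there was 2.95 (SE 0.29, adjusted p over all probes 1.97e-05). The groups did not overlap at either Serpina3f probe. The second probe was above background on 3 sham arrays, so neither size is exact, and on the scanner software's ratios the first Serpina3f probe differed by 3.77 and Serpina3h by 2.20.

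The remaining 3 tested Serpina3 genes were not called. Serpina3b had 0.60, 0.16, 0.66, 0.89 and 0.47 in sham and 3.04, 2.57, 1.26, 0.75 and 0.43 in PPE, so that PPE arrays 1 and 2, both on slide 1, stood above the others (difference 1.05, SE 0.45, adjusted p 0.0924). Serpina3k, a binding protein of tissue kallikrein, had 2.04 and 1.21 on those same 2 PPE arrays and between −0.09 and 0.37 on the other 3, against 0.09 to 1.03 in sham (difference 0.18, 95% interval −0.62 to 0.98). Serpina3c was highest on the 3 arrays of slide 1 in both groups, at 4.07 in sham and 4.55 and 4.36 in PPE, and its difference was 0.37 (95% interval −0.62 to 1.36). The difference of Serpina3c was −0.30 and that of Serpina3k −0.72 on the scanner software's ratios.

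**Figure D2:**
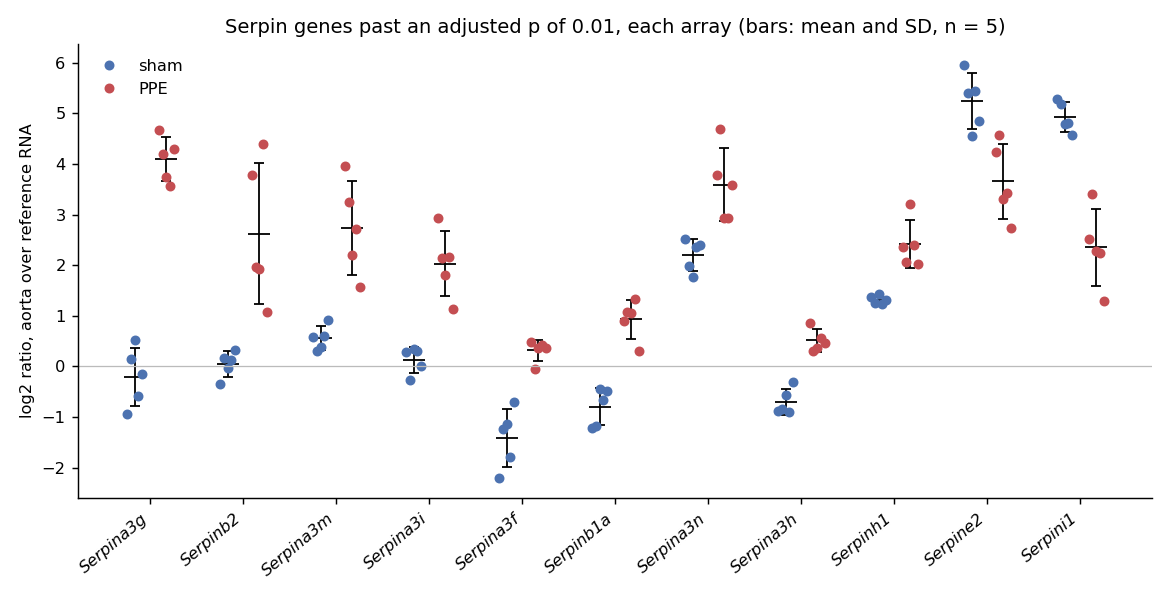
Log2 ratio of aorta over reference RNA on each array (y axis) for the 11 called serpin genes (x axis), sham in blue and PPE in red, with mean and SD of 5 arrays. Sham and PPE points are separate for every gene but Serpine2, where the lowest sham value of 4.56 meets the highest PPE value of 4.56.

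On chromosome 12 the files place 22 of the 23 clade A names within 797 kb, and the Serpina3 probes fill the last 297.2 kb of it. Reading along, the differences were below 0 from Serpina1d to Serpina1e, near 0 at Serpina11 and Serpina9, and largest at Serpina3g. Serpina3k, which was not called, lies between Serpina3i and Serpina3m, which were. Serpina7, the carrier of thyroxine, is the clade A name on another chromosome, and it was above background on no array.

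**Figure D3:**
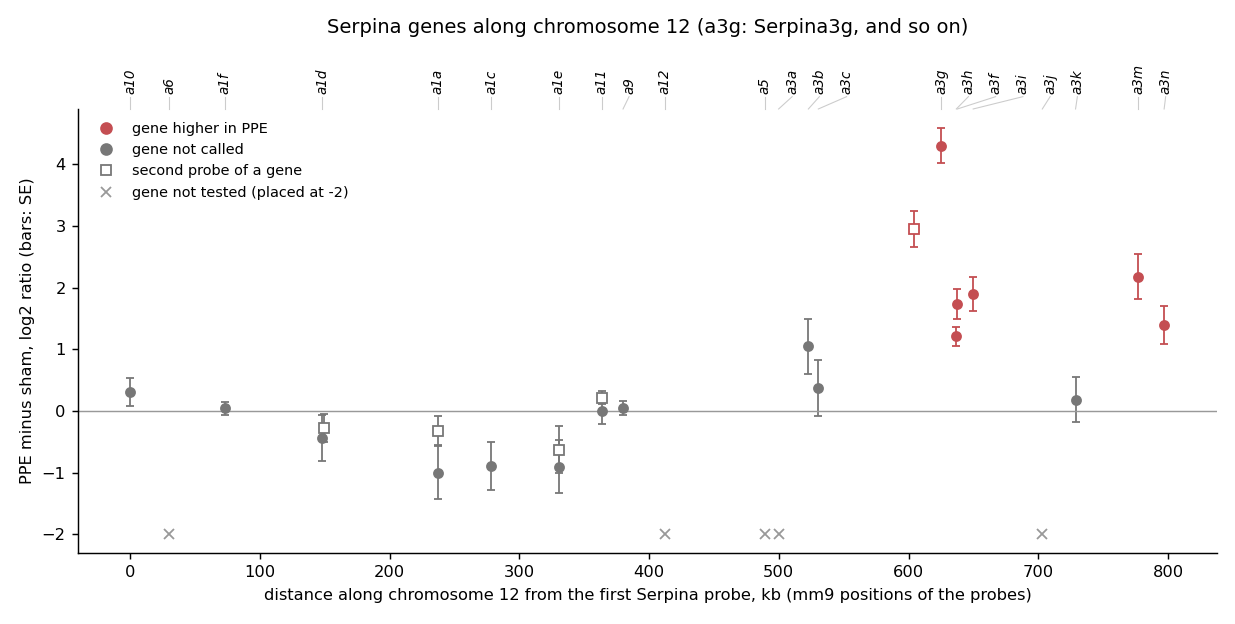
Difference between PPE and sham in log2 ratio (y axis, with SE) for the Serpina probes on chromosome 12, against their distance in kb from the first probe (x axis, mm9 positions); open squares are second probes and crosses at −2 mark untested genes. Probes of called genes (red) sit between 604.1 and 797 kb, and the grey genes at 148 to 330 kb are the antitrypsin genes.

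The starts of 26 of the 34 tested serpins were in the RefSeq promoter table, 6 of the 9 increased ones among them. In the 250 bases before each start 3 patterns were searched on both strands, chosen after the increases were known. A serpin was counted if any of its starts held the pattern, while the shares over all are of single promoters. The pattern TTCNNNGAA, the core recognised by STAT factors, was in 7 of the 26 and in 7.02% of 32851 promoters. A form of the NF-kB site (3 G, any 2 bases, then TTTCC) was in 3 of the 26 and in 1.41% of all promoters. The core of the interferon-stimulated element (GAAA, any 2 bases, GAAA) was in 2 of the 26, neither of them increased (Serpinb6a and Serpinb9), and in 2.98% of all. The 3 promoters with this NF-kB form were those of Serpina3g, Serpina3i and Serpina3n, shown here as 95 bases of the plus strand from RefSeq (GRCm38.p6) with the NF-kB and STAT patterns in capitals:
Serpina3g chr12:104236037-104236131: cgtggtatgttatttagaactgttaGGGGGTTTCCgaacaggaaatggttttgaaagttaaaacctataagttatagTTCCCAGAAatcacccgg
Serpina3i chr12:104262943-104263037: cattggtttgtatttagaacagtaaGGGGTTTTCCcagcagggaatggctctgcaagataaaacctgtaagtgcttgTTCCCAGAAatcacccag
Serpina3n chr12:104406512-104406606: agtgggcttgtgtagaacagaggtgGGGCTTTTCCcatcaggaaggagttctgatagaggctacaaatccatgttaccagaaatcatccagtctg
Serpina3g and Serpina3i were identical at 74 of these 95 bases, so the matches in those 2 genes lie in stretches that are themselves alike. Serpina3n, aligned without gaps, shared 47 bases with Serpina3g. Such an alignment misses likeness after an inserted or lost base, so the 47 bases do not show that the Serpina3n stretch is unrelated. Whether its match is a copy of the same site was not tested. A match of letters does not show that a factor binds there.

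The antitrypsin genes of clade A, whose secreted products are the main plasma inhibitors of neutrophil elastase, were not called. Serpina1a measured 2.37, 2.03, 2.36, 2.82 and 3.93 in sham and 1.94, 3.05, 1.49, 0.93 and 1.07 in PPE, with a difference of −1.0 (SE 0.43, 95% interval −1.95 to −0.05, adjusted p 0.0964). Sham array 5 and PPE array 2 were the highest of their groups and the groups overlapped. Serpina1c differed by −0.89 (adjusted p 0.0949), Serpina1e by −0.91 (adjusted p 0.130) and Serpina1d by −0.44 (adjusted p 0.414). Within slide 1 the differences of these 4 genes were between 0.01 and 0.13, and within slide 2 between −1.08 and −0.45. The probes of Serpina1a and Serpina1c are close enough to share a transcript, and the Serpina1c probe is listed against Serpina1e transcripts too. The values of Serpina1a, Serpina1c and Serpina1e therefore cannot be read as 3 separate measurements. Serpina1f, a form of the epididymis, differed by 0.04. Of 7 hepatocyte markers, Alb, Apoa1, Ttr, Apob, Fgb and Cyp3a11 were not tested. Apoa1 and Apob were above background on 0 arrays, Alb, Ttr and Fgb on 1, and Cyp3a11 on 4. The seventh, Ahsg, was measured on all 10 arrays and differed by 0.95 (adjusted p 0.0252).

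**Figure D4:**
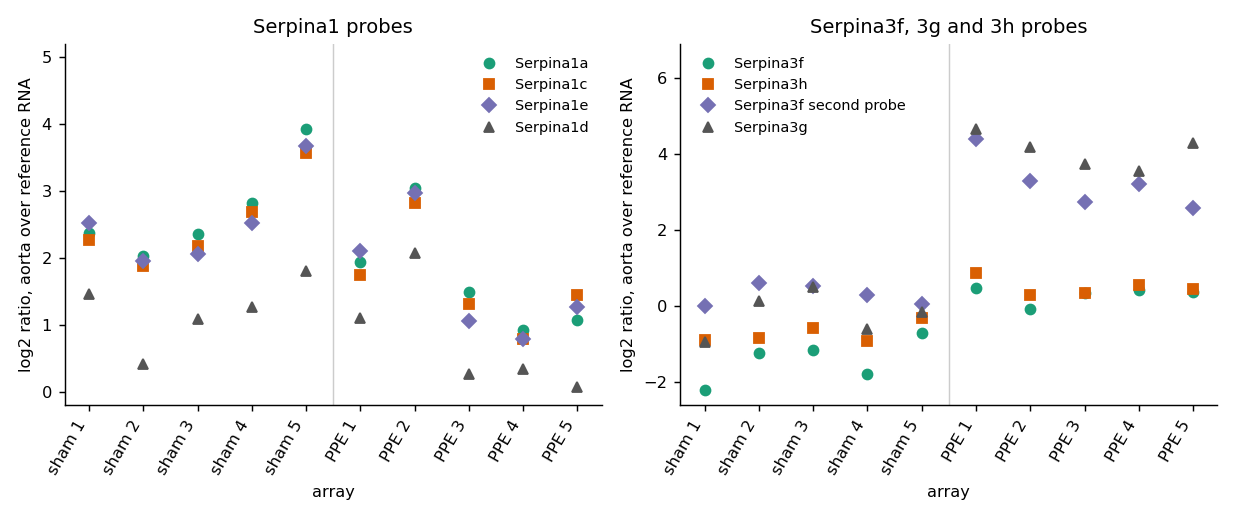
Log2 ratio of aorta over reference RNA (y axis) on each of the 10 arrays (x axis) for Serpina1 probes (left) and for both Serpina3f probes with Serpina3g and Serpina3h (right). The Serpina1a, Serpina1c and Serpina1e points move together from array to array and overlap between groups, while all 4 probes on the right are higher on every PPE array than on any sham array.

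Other clade A names changed little or were not measured. Serpina10, which inhibits factor Xa with protein Z, differed by 0.30 (95% interval −0.19 to 0.80), Serpina11 by 0.00 and Serpina9 by 0.05. Serpina5 (protein C inhibitor), Serpina6 (the cortisol carrier) and Serpina12 (vaspin) were above background on 0 arrays.

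In clade B, 26 names were on the array, 10 were tested, and 12 of the other 16 were above background on no array. Serpinb2, the intracellular inhibitor of urokinase also called PAI-2, is known as a strongly inducible gene of activated macrophages. It measured −0.35, 0.16, −0.04, 0.13 and 0.32 in sham and 3.78, 1.95, 1.93, 4.39 and 1.06 in PPE. The spread within PPE was the widest of all called serpins (SD 1.4), with PPE arrays 1 and 4 far above the other 3. The difference was 2.58 (SE 0.54, 5.97-fold, adjusted p 0.00300), with the probe at chr1:109422046-109422105 and above background on 3 sham arrays. It was 3.64 on the scanner software's ratios and 1.98 on the red channel alone.

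Serpinb1a inhibits neutrophil elastase, cathepsin G and proteinase 3 inside neutrophils and monocytes. Its values were −1.21, −1.17, −0.46, −0.66 and −0.48 in sham and 0.89, 1.07, 1.05, 1.34 and 0.29 in PPE. All PPE arrays lay above 0 and all sham arrays below it. The difference was 1.73 (SE 0.22, 3.31-fold, adjusted p 9.18e-05, chr13:32934693-32934752). Its copies Serpinb1b and Serpinb1c were above background on 2 and 0 arrays.

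Serpinb9, which guards cytotoxic lymphocytes against their own granzyme B, fell just outside the threshold. It had 1.43, 0.78, 0.74, 0.93 and 1.0 in sham and 1.89, 2.0, 1.33, 1.44 and 1.29 in PPE, where sham array 1 reached into the PPE range (difference 0.61, SE 0.18, adjusted p 0.0196). Without sham array 1 the adjusted p was 0.00784, with the slide as a block it was 0.00321, and on the red channel alone it was 0.00279. The 6 other Serpinb9 names were above background on 0 arrays.

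None of the 5 Serpinb6 names, relatives of an inhibitor of cathepsin G and trypsin, was called. Serpinb6a differed by −0.05 (95% interval −0.37 to 0.28), Serpinb6b by 0.10, Serpinb6c by 0.00, Serpinb6d by 0.28 and Serpinb6e by −0.05. The 2 probes of Serpinb6c share 43 bases without a mismatch and gave differences of 0.00 and 0.02. Serpinb8, which inhibits furin, differed by 0.33 (95% interval −0.15 to 0.82) and Serpinb3c by −0.12 (−0.31 to 0.06). The untested names of the clade included the epithelial serpins Serpinb5 (maspin, above background on 1 array), Serpinb7 (3 arrays) and Serpinb12 (2 arrays).

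Serpine2, protease nexin-1, sits on cell surfaces and matrix and inhibits thrombin, urokinase and plasmin. It measured 5.96, 5.40, 4.56, 5.45 and 4.85 in sham and 4.23, 4.56, 3.31, 3.43 and 2.73 in PPE. The difference was −1.59 (SE 0.36, 3.01-fold, adjusted p 0.00446). The groups touched at sham array 3 and PPE array 2, and without any 1 of sham arrays 1, 2 or 4 or PPE arrays 3 or 4 the adjusted p lay between 0.0121 and 0.0138, short of the threshold.

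Serpini1, neuroserpin, is an inhibitor of tissue plasminogen activator known mainly from neurons. It had 5.29, 5.18, 4.79, 4.81 and 4.57 in sham and 2.53, 3.41, 2.28, 2.25 and 1.28 in PPE, so the highest PPE array stayed more than 1 log2 unit below the lowest sham array. The difference was −2.58 (SE 0.32, 5.97-fold, adjusted p 8.03e-05, chr3:75446123-75446182), and 68 of 22520 names fell by more. A second probe, at chr3:75420571-75420630, had 2.63, 2.42, 1.86, 2.54 and 1.13 in sham and 1.27, 1.45, 0.81, 0.91 and 0.08 in PPE. There the groups overlapped through sham array 5, and the difference of −1.21 (SE 0.32) missed the threshold with an adjusted p over all probes of 0.0117. Both probes had the same sign but not the same call.

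Heparin cofactor II (Serpind1) differed by 0.13 (95% interval −0.17 to 0.43). Antithrombin (Serpinc1) was above background on 3 arrays, antiplasmin (Serpinf2) on 2 and Serpine3 on 0, and these were not tested.

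C1 inhibitor, the product of Serping1, blocks the first proteases of the classical complement pathway and plasma kallikrein. It had 5.04, 4.04, 3.69, 4.39 and 4.41 in sham and 4.85, 5.52, 3.49, 3.32 and 4.66 in PPE. The PPE arrays surrounded the sham arrays, and the difference was 0.06 (SE 0.41, 95% interval −0.84 to 0.95). The second probe differed by 0.32 (SE 0.35, adjusted p over all probes 0.540).

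Among the members that inhibit no protease, Serpinh1 rose. It is the chaperone of the endoplasmic reticulum that procollagen needs to fold. It had 1.37, 1.25, 1.42, 1.24 and 1.30 in sham, the tightest group of any called serpin (SD 0.08), and 2.36, 2.06, 3.21, 2.40 and 2.03 in PPE. The difference was 1.09 (SE 0.20, 2.14-fold, adjusted p 0.00121, chr7:106493971-106494030). Of 6 collagen genes listed as its clients, Col1a1, Col1a2, Col3a1 and Col5a1 rose, with differences of 2.04, 1.21, 1.95 and 1.86, and Col4a1 and Col4a2 did not pass (0.15 and −0.11). Serpinf1, pigment epithelium-derived factor, had 0.99 to 1.38 in sham and 0.48 to 1.24 in PPE, a difference of −0.30 (95% interval −0.66 to 0.05).

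Within the 2 slides that held both groups, each called serpin kept its sign. On slide 1 the 9 increases were between 0.84 and 5.38 and on slide 2 between 1.07 and 3.33. Serpine2 differed by −1.57 and −1.61 there, and Serpini1 by −2.32 and −2.72.

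A list of 55 genes held proteases, cofactors and receptors of serpins, collagens and protease inhibitors of other families. Of these 49 were tested, 22 rose (44.9%, against 13.8% of all names) and 5 fell (10.2%, against 9.96% of all names). Of the plasminogen activators, urokinase (Plau) rose by 0.89 (adjusted p 0.00645), tissue plasminogen activator (Plat) differed by −0.09 (95% interval −0.39 to 0.22) and plasminogen (Plg) was not tested. The urokinase receptor Plaur rose by 1.68. Vldlr, a receptor that takes up complexes of protease and serpin, fell by 2.73 (adjusted p 1.92e-06), and Lrp1, another such receptor, differed by 0.15. Vitronectin (Vtn), an adhesive protein of plasma and matrix, differed by 1.04 (adjusted p 0.0607).

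In coagulation, 4 of 8 listed genes were tested and 1 of them was called higher (25%, against 13.8% of all names). This was factor VII (F7), which rose by 2.01, with 0.18 as mean of sham and 2.19 as mean of PPE. F7 was above background on 2 sham and 5 PPE arrays, so the size of its difference is limited by the sham signal. The protein C receptor (Procr) rose by 0.74. In complement, C1ra rose by 1.06 (adjusted p 0.000300) and C1s by 1.42 (adjusted p 0.00162), both of them targets of C1 inhibitor, and Masp1 and Masp2 were not called.

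Of 10 leukocyte serine proteases 2 rose (20.0%, against 13.8% of all names), granzymes A and B of cytotoxic lymphocytes (2.87 and 1.99), and Gzmk and Gzmm were not called. Cathepsin G (Ctsg), an enzyme of neutrophils and mast cells, had sham values of 0.14 to 0.42 and PPE values of 0.66 to 4.37, which did not overlap, with an adjusted p of 0.0248. Neutrophil elastase (Elane, 0.59) and proteinase 3 (Prtn3, 0.96) did not pass either, nor did the mast cell proteases Cma1, Mcpt4 and Tpsb2. Of 5 cysteine proteases (4 cathepsins and caspase 1) 4 rose (80.0%): Ctss by 5.12 (adjusted p 8.57e-07), Casp1 by 1.79, Ctsb by 1.47 and Ctsl by 0.47, while Ctsk (0.50) was not called.

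**Figure D5:**
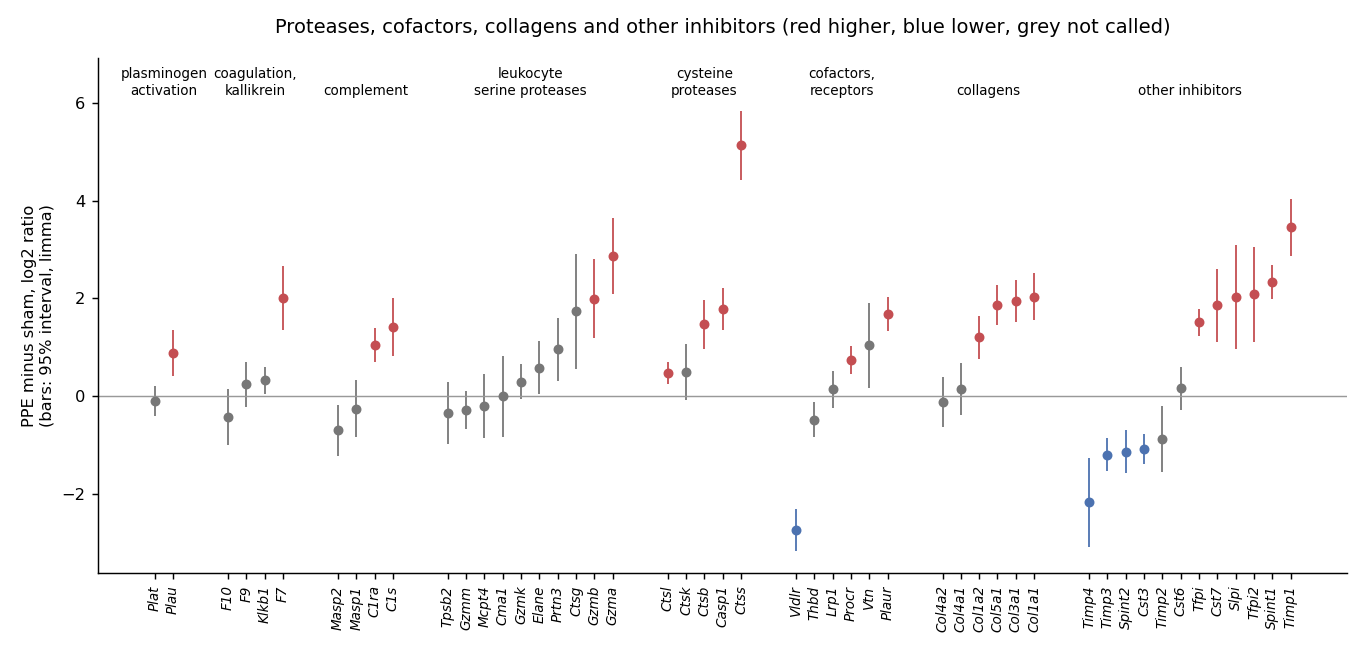
Difference between PPE and sham in log2 ratio (y axis, with 95% interval from limma) for the 49 tested genes of proteases, cofactors, collagens and inhibitors of other families (x axis, by group). Red genes (22) rose, blue genes (5) fell, and Ctss reaches the highest value at 5.12.

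Protease inhibitors of other families moved in both directions. Of 12 tested, 6 rose (50%, against 13.8% of all names) and 4 fell (33.3%, against 9.96% of all names). Timp1 rose by 3.46, Spint1 by 2.34, Tfpi2 by 2.08, Slpi, an inhibitor of neutrophil elastase, by 2.03, Cst7 by 1.86 and Tfpi by 1.51. Spint1, Tfpi2 and Cst7 were above background on 1, 1 and 3 sham arrays and on all 5 PPE arrays. The sizes of their differences are therefore limited by the sham signal. For Slpi the groups overlapped. Timp4 fell by 2.16, Timp3 by 1.19, Spint2 by 1.13 and cystatin C (Cst3) by 1.07.

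Markers of several cell types moved with the serpins. Of all names, 13.8% were called higher and 9.96% lower, and the counts here are to be read beside these shares. All 7 macrophage markers and 6 of 7 tested neutrophil markers were higher in PPE. Among the latter, Ngp, Ltf, Retnlg and Camp were above background on 0, 1, 3 and 4 sham arrays and on all 5 PPE arrays. The summed red signal of the macrophage list ran from 14.7 to 15.3 (log2) in sham and from 16.8 to 17.7 in PPE. For neutrophils these ranges were 14.8 to 16.1 and 16.5 to 18.0, and for the 6 T and NK cell markers, 3 of them higher, 10.8 to 11.3 and 12.3 to 13.2. In the other direction, 6 of 7 smooth muscle markers were lower, with sums of 19.7 to 20.3 in sham and 17.1 to 17.9 in PPE, and the adipocyte sum, with Ucp1 as the only one of 6 called, went from 18.8 to 19.2 in sham to 17.0 to 17.9 in PPE. None of 5 markers of Schwann cells and nerve, 5 of endothelium or 4 of B cells was called, and 1 of 5 fibroblast markers (Pdgfra) and 1 of 4 tested mast cell markers (Hdc) were higher. The part of these cell types in the serpin differences was not tested.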

How the data were processed

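Labels of the samples gave 5 sham and 5 PPE arrays. The authors hybridised 2-colour Agilent arrays, and Feature Extraction 10.7.3.1 was the software per the file headers. Dyes were not swapped. They left out arrays with poor hybridization or outlying profiles, and which ones is not stated. Each array has 62976 spots, 59305 of them not controls. Signals and local backgrounds of spots were deposited as linear intensity. The authors' files also hold a LogRatio (log10, red over green), which was multiplied into log2. The deposited series matrix holds log2 values that equalled processed red over green on 100% of spots within 1e-04, with no centring.

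In R 4.3.3 with limma 3.58.1, mean signals were background-corrected by normexp (offset 50), normalized by loess within each array (control spots and 176 to 331 outlier spots per array at weight 0) and averaged per probe. The offset draws ratios of dim probes towards 0. A name is represented by its brightest tested probe. Groups were compared unpaired and two-sided with lmFit and eBayes, adjusted over 22520 names. The study's SAM test was not run here, and its false discovery rate of 1% was kept as an adjusted p of 0.01. Intervals are 95% intervals from limma. The number of arrays limits the precision, and the spread between arrays is that between mice. On simulated data the script was tested before use.

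Members, lists and patterns were chosen with earlier results of these data known. The values of 1 tested serpin, counted among the 34, are not reported here. Every other serpin name may be named, tested ones with values and called ones on every array. Marker lists cover smooth muscle, macrophage, neutrophil, hepatocyte, adipocyte, mast, T and NK, B, Schwann and nerve, endothelial and fibroblast cells. All 60 names were symbols of the RefSeq table of GRCm38.p6, and 71 of 75 probes were listed against a transcript in it. Probe positions are on mm9, from the files. Exon and UTR annotation was not used here. Slides were used as batches. Alternatives were another offset, median centring, the LogRatio, the series matrix, Aquantile, the red channel alone, other filters, the mean over probes, slide and replicate blocks, and leaving out each array.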

Additional observations from a re-analysis of the deposited data

Results flagged for a closer look

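Within groups of 5 arrays, 4 of the 66 groups of tested serpins had 1 array far from the rest (beyond Dixon's 95% critical value), and chance gives about 1 in 20 such groups. Serpina10 had 0.67 on sham array 3, where the next highest sham array had 0.06, and 1.23 on PPE array 2, where the next had 0.30. Serpina3f had −0.061 on PPE array 2, below the next lowest PPE array at 0.35 and still above every sham array. Serpina9 had −0.11 on PPE array 5, and the next lowest PPE array had 0.06.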

How the results depend on the processing

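The 9 serpins called higher and 2 called lower became 2 and 0 after median centring in place of loess, where the median of all names moved from 0.02 to 0.41, and the 22 and 5 calls among the protease, cofactor, collagen and inhibitor genes became 3 and 0. Serpina3f and Serpina3g were still called there and the other 9 kept their sign. Over all 22520 names, the calls fell with median centring from 3116 higher and 2243 lower to 408 and 8. With a signal above background required on all 10 arrays, 4 serpins were higher and 2 lower, of 19 tested. Leaving out each array gave 8 to 10 serpins higher and 1 to 2 lower. The other settings gave 8 to 10 higher and 2 lower, the replicate block 9 and 2. Aquantile leaves the log ratios as they are, so its counts equal the main ones and are no check of them. Same-numbered arrays correlated at between −0.30 and 0.52, so numbers do not pair the mice. On the LogRatio and the series matrix the differences of called serpins that moved most were 3.77 for Serpina3f, 3.64 for Serpinb2, 2.86 for Serpina3m, 2.52 for Serpina3i and 2.20 for Serpina3h, all larger than with loess, beside the smaller one of Serpina3n. On the red channel alone Serpina3n had 2.88, Serpinb2 1.98 and Serpina3m 1.36. Median centring gave 1.86 for Serpinh1 and −1.82 for Serpini1, and the mean over probes 2.34 for Serpina3f and −1.89 for Serpini1. Serpina3n, Serpine2 and Serpinb9 crossed the threshold as given with their values, and Serpine2 had −0.86 (adjusted p 0.504) after median centring.

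Among genes that were not called, the difference changed sign as follows. On the red channel alone it was −0.17 for Serpina11, −0.0092 for Serpina1f, −0.12 for Serpina3c, −0.18 for Serpina3k, −0.046 for Serpinb6b and −0.037 for Serpind1. On the scanner's LogRatio it was −0.13 for Serpina1f, −0.30 for Serpina3c, −0.72 for Serpina3k, −0.10 for Serpina9, −0.043 for Serpinb6b and −0.0019 for Serping1. The series matrix gave −0.14 for Serpina1f, −0.63 for Serpina3k and the same values for the other 4. Median centring gave 0.79 for Serpinb6a, 0.022 for Serpinb6e and 0.59 for Serpinf1. The slide as a block gave 0.035 for Serpinb6a and −0.21 for Serping1, and an offset of 16 gave −0.032 for Serpinb6c. Leaving out arrays moved Serpina11 from −0.15 to 0.12, Serpina3k from −0.15 to 0.39, Serpinb6a from −0.12 to 0.050, Serpinb6c from −0.067 to 0.060, Serpinb6e from −0.082 to 0.0021 and Serping1 from −0.23 to 0.32. The causes were not tested. Where a probe was not above background on most sham arrays, as for Serpina3f, the size of its difference is limited by that signal.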
